A study of Mus musculus with 2 samples.

Results

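Transcripts of 9 genes known from the B lineage were followed in 2 cultures of mouse CD4 T cells: Ighm, Igha, Cd79a, Cd79b, Ms4a1, Cd72, Cd40, Blk and Cd22. Each probe set that the platform annotation assigns to exactly 1 of these genes was taken, which gave 25 of the 34945 probe sets with 1 gene symbol, and 9 of 18193 named genes. On this array a transcript is read by a set of short oligonucleotides, the probe set, whose brightness is condensed to 1 signal. The genes were picked with the values of these arrays known, so every difference below is a description and carries no test.

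Both cultures were started from splenic CD4 T cells of wild-type C57BL/6 mice, sorted magnetically to a stated purity above 98%. The cells were activated for 2 days with plate-bound antibody to the T cell receptor and antibody to CD28, cultured for 3 further days, and lysed in Trizol on day 5. The CD103+ Th1 medium held 10 ng/ml IFN-γ with IL-4 and TGF-β, each at 3 ng/ml. The Th1 medium held 1 ng/ml IL-12 and 1 µg/ml of 11B11, an IL-4-blocking antibody. The labels name neither the number of mice nor any pooling, and each condition has 1 Affymetrix expression array, so the spread between cultures is unknown and the number of arrays limits the precision. Every ratio is the CD103+ Th1 array over the Th1 array.

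B cells sense antigen through a membrane immunoglobulin, made of heavy and light chains, that signals through the paired chains CD79A and CD79B and through SRC family kinases such as BLK. CD22 and CD72 are coreceptors that dampen this signal, CD20, encoded by Ms4a1, is a membrane protein of mature B cells, and CD40 receives help from T cells through CD40 ligand. Ighm encodes the constant region of the IgM heavy chain and Igha that of IgA, to which B cells switch in response to TGF-β. CD40 is also found on macrophages and dendritic cells. Light chains and CD79A are regarded as products of the B lineage.

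Only Cd72, Cd79a and Cd22 of the 9 genes, 3 in all, had an entry in the RefSeq promoter table, which spans 250 bases before and 50 bases after a gene's start on GRCm38.p6. The sequences of Cd72 and Cd79a are shown because the signal of the first was above the array median in both cultures and that of the second below it in both. Capitals mark the letters TTCCTC, the reverse complement of GAGGAA, the core bound by the factor PU.1. Cd72 is at chr4:43454577-43454876 on the minus strand and Cd79a at chr7:24897247-24897546 on the plus strand, both printed 5′ to 3′ along the gene.
Cd72: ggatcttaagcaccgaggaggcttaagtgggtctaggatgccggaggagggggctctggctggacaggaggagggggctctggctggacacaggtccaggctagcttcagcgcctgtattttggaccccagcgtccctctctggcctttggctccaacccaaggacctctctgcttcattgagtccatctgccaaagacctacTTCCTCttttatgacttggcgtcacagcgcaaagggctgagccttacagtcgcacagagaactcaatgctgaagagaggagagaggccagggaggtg
Cd79a: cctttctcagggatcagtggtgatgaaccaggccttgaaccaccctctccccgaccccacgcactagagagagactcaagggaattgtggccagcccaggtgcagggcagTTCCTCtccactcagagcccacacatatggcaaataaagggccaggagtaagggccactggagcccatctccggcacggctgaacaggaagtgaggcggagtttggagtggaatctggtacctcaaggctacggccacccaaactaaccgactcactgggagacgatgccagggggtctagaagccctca
The match lies at bases -47 to -42 from the start in Cd72 and at -140 to -135 in Cd79a, and the Cd22 window holds 0. Of all 32851 windows in the table, 28.3% hold GAGGAA on either strand, so a match is common. The octamer ATTTGCAT (1.74% of windows), the STAT motif TTCNNNGAA (8.30%) and the SMAD palindrome GTCTAGAC (0.213%) were also searched on both strands, and 0 matches were found in the 3 windows. Spi1, which encodes PU.1, gave 57.2 in CD103+ Th1 and 69.7 in Th1, both under the array median; it and these motifs were chosen after the values were seen.

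The arrays held 45037 probe sets each and had nearly equal medians (78.0 in CD103+ Th1 and 78.8 in Th1). The median over both arrays, 78.5, served as a floor. A signal under it was set to it, a probe set dimmer than it in both cultures has no ratio and is called unmeasured, and one under it on 1 array gives a bound, written "at least". Of the 13 pan T cell genes with a probe set, 13 were above the floor on both arrays and 0 differed by 2-fold. Cd3e, part of the T cell receptor complex, had signals of 3652 and 2721, and Cd4 had 1081 and 973. The labelled cell type thus had its defining transcripts on both arrays.

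Among the B-lineage genes, Igha, Cd40, Ighm, Cd72 and Cd79b had at least 2-fold more signal in CD103+ Th1, Blk and Cd22 lay close to the floor in both cultures, and Cd79a and Ms4a1 were under it in both. In counts of genes, 7 of 9 were measured, 5 of the 7 passed 2-fold upwards and 0 downwards. Over all 11194 measured genes, 5.04% were 2-fold or more higher and 4.87% as much lower. The median log2 ratio of the 7 was 1.66, beside -0.03 for all measured genes. In counts of probe sets, 14 of 25 were measured, 6 of them above the floor in CD103+ Th1 alone (5.27% of all measured probe sets with 1 gene) and 0 in Th1 alone (6.14%). Of the 14, 10 were at least 2-fold higher (5.02% of all 20208 measured probe sets with 1 gene) and 0 at least 2-fold lower (4.19%). Since the genes were chosen on these values, nothing is read from these shares. The signals came from bulk RNA, in which fewer cells of a type and less RNA per cell cannot be told apart.

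**Figure D1:**
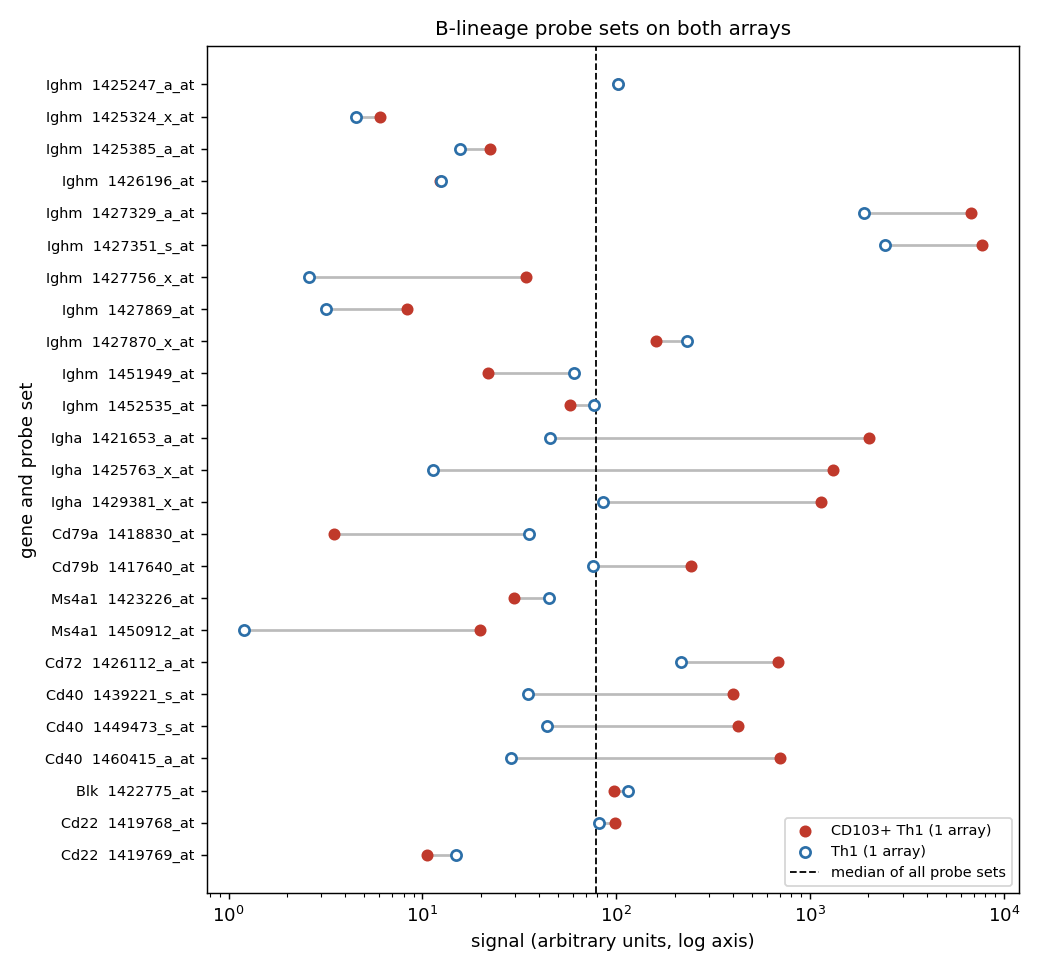
Signal of each of the 25 B-lineage probe sets (rows) on the CD103+ Th1 array (filled) and the Th1 array (open), in arbitrary units on a log axis, with the median of all probe sets, 78.5, as a dashed line. The Igha and Cd40 probe sets cross the line or start at it and end far to its right in CD103+ Th1, 11 probe sets lie left of it on both arrays, and each point is 1 array.

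The immunoglobulin heavy chain genes gave the largest ratio and also the widest disagreement among probe sets. All 3 Igha probe sets were far higher in CD103+ Th1. The first, 1421653_a_at, read 2007 in CD103+ Th1 and 45.3 in Th1, at least 25.6-fold higher. The second, 1425763_x_at, had 1320 and 11.3, at least 16.8-fold higher. The third, 1429381_x_at, had 1132 and 85.2, 13.3-fold higher. In CD103+ Th1 these signals stood between percentiles 85.8 and 91.3 of the array, whereas in Th1 the first pair lay under the floor and the third barely above it. Represented by the third probe set, which has the highest mean log2 signal, Igha ranked 15 among the 11194 measured genes, of which 0.331% were at least 8-fold higher.

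Ighm had 11 probe sets, of which 4 were above the floor on both arrays and 7 under it on both. A pair was bright in both cultures. Probe set 1427351_s_at had 7712 in CD103+ Th1 and 2443 in Th1, 3.16-fold higher, and 1427329_a_at had 6770 and 1890, 3.58-fold higher. Unlike Igha, Ighm was therefore well above the floor in the Th1 culture too, at percentiles 92.8 and 90.9 of that array. The remaining measured pair did not share this difference. Probe set 1425247_a_at had 102 and 102, a log2 ratio of 0.00, and 1427870_x_at had 161 and 233, 1.45-fold lower. The 7 unmeasured Ighm probe sets had signals from 2.60 to 76.3. Over the 4 measured probe sets the mean log2 ratio was 0.74, less than 2-fold, against 1.66 for the brightest. Over all members, a further 4 probe sets list a member gene together with other symbols and were left out.

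The other immunoglobulin transcripts did not accompany Ighm and Igha above the floor. Of 24 probe sets for κ and λ light chain genes, from 16 gene symbols, 23 were unmeasured. The exception, 1452536_s_at for a κ variable segment, read 102 in CD103+ Th1 and 69.6 in Th1. Most of the 24 carry the symbol of a variable segment and the rest the symbol Igk, while no symbol names a light chain constant region. Probe sets that list several symbols were not counted here. The median light chain signal was 6.16 in CD103+ Th1 and 11.0 in Th1, deep in the range under the floor. Among 5 probe sets for other heavy chain symbols, 3 were unmeasured. Ighg3, the IgG3 constant region, had a highest probe set at 77.6 and 82.7, and the variable segment Ighv14-2 had 103 and 1.70, at least 1.31-fold higher. Jchain, which encodes the joining chain of polymeric IgA and IgM, had 28.3 and 59.1, under the floor in both cultures.

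**Figure D2:**
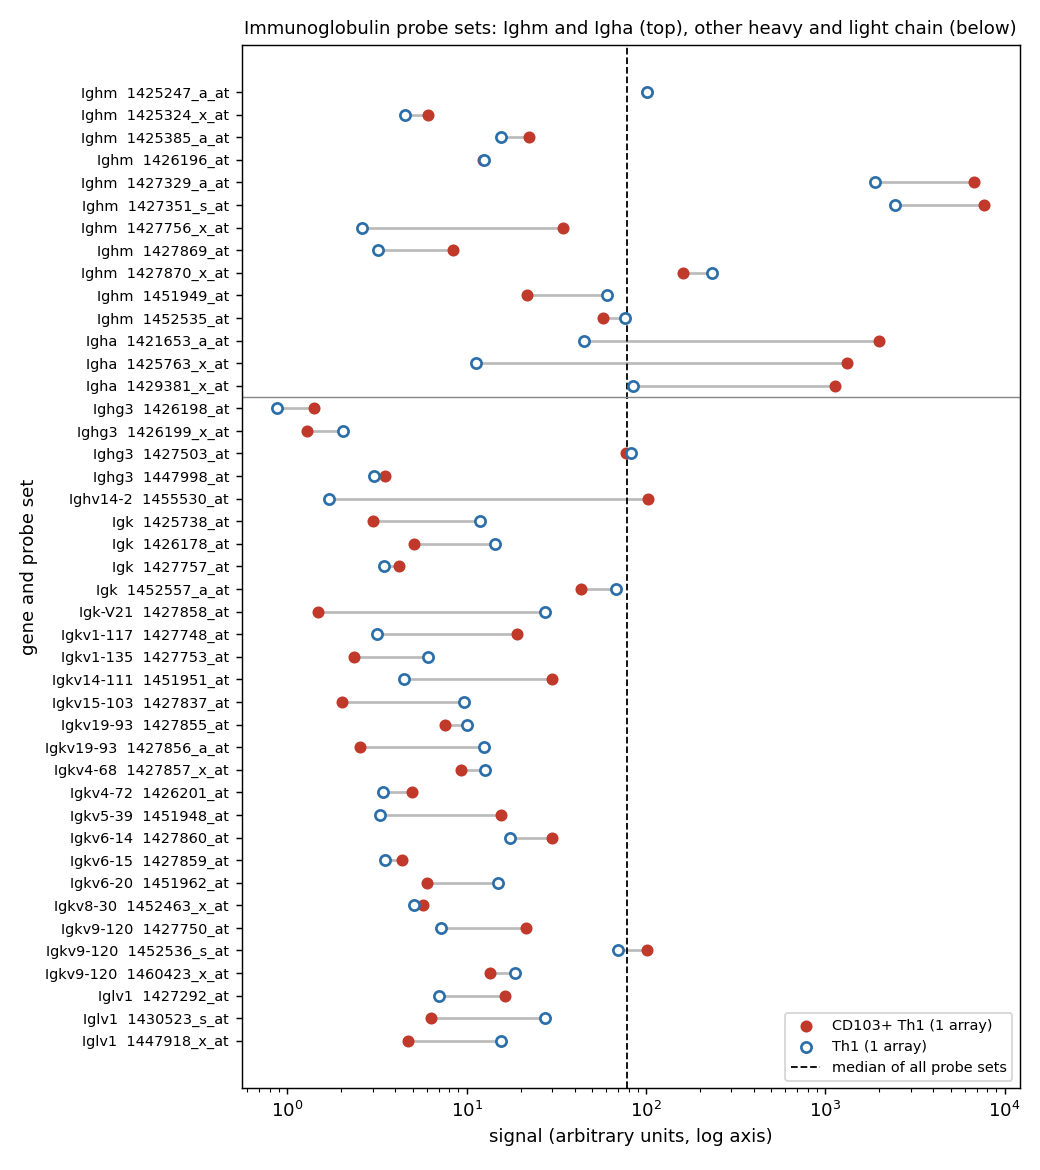
Signals of the 14 Ighm and Igha probe sets (above the grey line) and of 29 probe sets for other immunoglobulin genes (below it) on the CD103+ Th1 array (filled) and the Th1 array (open), in arbitrary units on a log axis, with the median of all probe sets dashed. The 3 Igha probe sets reach 1132 to 2007 and 2 of the Ighm probe sets 6770 and 7712 in CD103+ Th1, while 26 of the 29 others lie left of the dashed line on both arrays.

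The signalling chains that accompany immunoglobulin differed from each other. Cd79b had 244 in CD103+ Th1 and 75.8 in Th1, at least 3.11-fold higher, with the Th1 signal just under the floor. Its partner Cd79a had 3.50 and 35.4, both under the floor, and so has no ratio. Blk, the kinase of the receptor, had 96.8 and 115, 1.19-fold lower, and both signals were within 1.5 times the floor. One member of the pair that forms the CD79 dimer was thus measured in CD103+ Th1, and the other in neither culture.

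The inhibitory coreceptors differed as well. Cd72 had 685 in CD103+ Th1 and 215 in Th1, 3.18-fold higher, and was above the floor on both arrays. Cd22 had 99.0 and 81.9 on probe set 1419768_at, 1.21-fold higher and close to the floor in both cultures, and 10.5 and 14.8 on 1419769_at, under it. Of 5 genes for partners of CD72 and CD22, 5 were measured and 0 differed by 2-fold, with a median log2 ratio of 0.21. Sema4d, the ligand of CD72, had 5109 and 5022. Ptpn6, for the phosphatase SHP-1 that both coreceptors recruit, had 4800 and 3438, and St6gal1, which makes the sialic acid linkage that CD22 binds, had 7352 and 9057. Plxnb1, for another SEMA4D receptor, had 235 and 124, 1.89-fold higher.

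Cd40 was under the floor in Th1 and above it in CD103+ Th1 on all 3 of its probe sets. Probe set 1460415_a_at had 701 in CD103+ Th1 and 28.5 in Th1, at least 8.93-fold higher. Probe set 1449473_s_at had 425 and 43.9, at least 5.41-fold higher, and 1439221_s_at had 400 and 34.8, at least 5.10-fold higher. On its brightest probe set the gene ranked 27 among the measured genes, a rank that rests on the bound and so depends on the floor. Of 12 genes of the CD40 pathway with a probe set, 11 were measured, and 2 passed 2-fold upwards and 0 downwards, around a median log2 ratio of 0.56 beside -0.03 for all genes. Map3k14, for the kinase NIK of the alternative NF-κB pathway, had 375 and 184, 2.03-fold higher, with a second probe set at a log2 ratio of 0.50. Tnfaip3, for the NF-κB inhibitor A20, had 2055 and 1016, 2.02-fold higher, with a second probe set at 0.13. Traf6, an adaptor of CD40, was 1.73-fold higher and Tank 1.54-fold higher, the latter with a second probe set at -0.44. Cd40lg, the ligand gene of activated T cells, had 17.2 and 60.3 on its 1 probe set, under the floor in both cultures.

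Ms4a1 was under the floor in both cultures on both probe sets, at 29.5 in CD103+ Th1 and 44.9 in Th1 on 1423226_at and at 19.8 and 1.19 on 1450912_at. The 2 probe sets lay in opposite order between the cultures, in the range where no ratio was formed. Related Ms4a genes were partly bright. Of 12 other Ms4a genes with a probe set 8 were measured. None passed 2-fold upwards and 2 did downwards, namely Ms4a4c (172 and 3270, 19.0-fold lower) and Ms4a6d (55.3 and 457, at least 5.83-fold lower). Ms4a4b had 13813 and 25662, 1.86-fold lower, with a second probe set past 2-fold downwards at a log2 ratio of -1.36. Ms4a6c had 1047 and 1773, 1.69-fold lower.

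How far 2 arrays lie apart depends on the signal, and 11 of the 25 probe sets had a mean signal under the floor. In that range 40.2% of all 15813 named probe sets differed by at least 2-fold in either direction when no floor was applied. Of the 11, 3 were at least 2-fold higher (17.8% of all) and 2 at least 2-fold lower (22.4%). Between 2 and 4 times the floor lay 4 member probe sets, of which those of Cd79b and a pair of Cd40, 3 in all, were at least 2-fold higher (7.19% of all in that range). Between 4 and 8 times the floor lay the third Cd40, the Cd72 and 1 Igha probe set, and the 3 were at least 2-fold higher (6.54% of all). Above 8 times the floor the share in either direction was 7.71%, and 4 member probe sets lay there, the bright pair of Ighm and a pair of Igha. These 4 were at least 2-fold higher (4.56% of all in that range). This pair of Igha and the Cd79b and Cd40 probe sets, 6 in all, were in their ranges through the CD103+ Th1 culture alone, since their Th1 signals were under the floor. For these 6 a difference of at least 2-fold upwards was thereby fixed in advance. The other Igha probe set was barely above the floor in Th1. The members were picked on these values, so the shares describe the arrays and set no member apart from them.

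**Figure D3:**
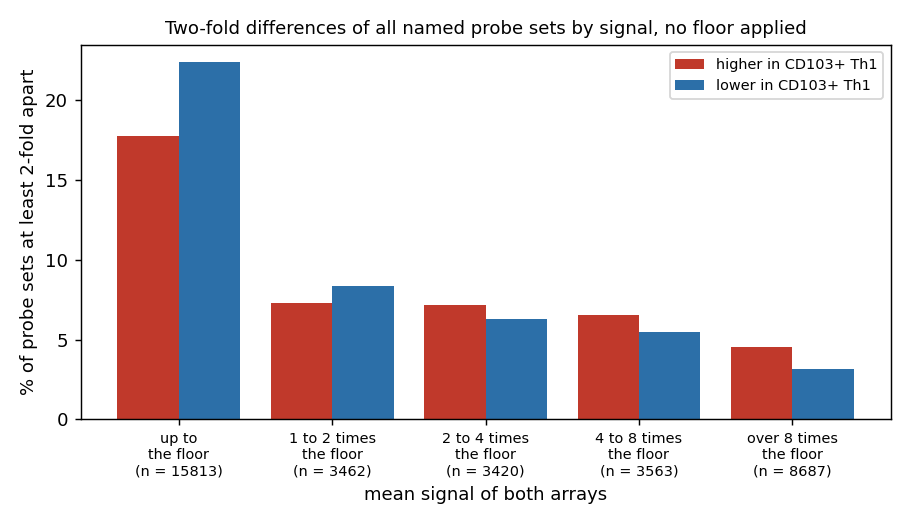
Share of named probe sets at least 2-fold higher (red) or lower (blue) in CD103+ Th1 by the mean signal of both arrays, with no floor applied, in percent. The bars start at 0, n is the number of probe sets in each range, and the share falls from 17.8% and 22.4% under the floor to 4.56% and 3.15% above 8 times the floor.

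Probe sets whose names carry the letters a, s or x can bind several transcripts, by the manufacturer's naming: variants of 1 gene for a, transcripts of different genes for s, and similar sequences elsewhere for x. Of the 10 member probe sets that were at least 2-fold higher, 9 carry such a letter, and the tenth is that of Cd79b. The letter is a for 1427329_a_at of Ighm, 1421653_a_at of Igha, 1426112_a_at of Cd72 and 1460415_a_at of Cd40, and s or x for the rest. Of the 11 member probe sets without a letter, 3 were measured. Among all measured probe sets with 1 gene, 3.99% of those with a letter and 5.43% of those without were at least 2-fold higher. Igha, Cd72 and Cd40 had no probe set without a letter, and the 4 of Ighm without one were unmeasured, so the part of shared binding in these differences was not tested.

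Other genes known from B cells, which need not be particular to them, were measured in part, and the lineage-determining factors were not. Of 19 other B cell identity genes with a probe set, 9 were under the floor in both cultures, among them Pax5 (48.7 and 72.9) and Ebf1 (18.2 and 26.2), the transcription factors that establish the lineage, and the receptor genes Fcer2a, Cr2 and Cd180. Of the 10 measured genes 3 passed 2-fold upwards and 1 downwards, around a median log2 ratio of 0.45. Cd24a, for a glycoprotein found on many cell types, had 8124 and 453, 17.9-fold higher. Tnfrsf13b, for the BAFF and APRIL receptor TACI, had 3944 and 1762, 2.24-fold higher. Bank1, for a scaffold protein of the B cell receptor pathway, had 238 and 107, 2.23-fold higher.

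Fcmr, for the Fc receptor of IgM, was 2.39-fold lower, with 633 and 1510. Tnfrsf13c, for the BAFF receptor, was 1.86-fold higher and the tetraspanin gene Cd37 1.60-fold higher. H2-Ob was 1.13-fold higher, and Vpreb3 (90.9 and 62.4) and Ciita (82.0 and 61.1) lay close to the floor, with a second Ciita probe set at a log2 ratio of at least 1.06. Pou2af1, for a B cell transcriptional coactivator, had 17.6 and 95.2, at least 1.21-fold lower. The summed signal of the 19 genes was 16764 in CD103+ Th1 and 6653 in Th1, and 8640 and 6200 without Cd24a. In all, 7 of the 9 members and 10 of these 19 genes were measured. The members Ighm, Cd72, Blk, Cd22 and, on 1 of 3 probe sets, Igha were above the floor on both arrays. So were the identity genes Bank1, Cd37, Cd24a, Tnfrsf13b, Tnfrsf13c, H2-Ob and Fcmr. Represented by 1 probe set each, Cd79b, Cd40, Vpreb3 and Ciita were above it in CD103+ Th1 alone and Pou2af1 in Th1 alone. Unmeasured were Cd79a, Ms4a1, Pax5, Ebf1, further identity genes and 23 of 24 light chain probe sets, mostly for variable segments. Whether B cells contributed RNA to either culture was not tested.

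Genes downstream of the B cell receptor were divided, with log2 ratios above 0 for 7 and below 0 for 7. Of 18 with a probe set 14 were measured, of which 0 passed 2-fold upwards and 1 downwards, around a median log2 ratio of 0.03. The latter was Pik3ap1, an adaptor for PI3-kinase, with 220 in CD103+ Th1 and 510 in Th1. A second Pik3ap1 probe set had a log2 ratio of -0.58, less than 2-fold. Plcg2 was 1.69-fold lower, while Dapp1 and Syk were each 1.63-fold higher, Syk with signals of 133 and 81.9. Btk and Blnk, the kinase and adaptor that link SYK to phospholipase C, were under the floor in both cultures. Among 4 kinases of the SRC family other than Blk, Src had 227 and 51.2, at least 2.90-fold higher, with a second probe set at 0.75. Yes1 was 1.40-fold higher, Fgr 1.35-fold lower and Fyn 1.01-fold lower.

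Plasma cell genes were mostly lower by small ratios. Of 12 genes 10 were measured, with log2 ratios below 0 for 8 and above 0 for 2, of which 0 passed 2-fold upwards and 1 downwards, around a median log2 ratio of -0.27. Prdm1, for the factor BLIMP-1 of plasma cells and effector T cells, had 299 and 690, 2.31-fold lower. Derl3 was 1.53-fold higher, Mzb1 1.47-fold lower and Ell2 1.34-fold lower. Irf4 was 1.20-fold lower on its brightest probe set, with a second past 2-fold downwards at a log2 ratio of -1.05. Sdc1, for the plasma cell surface marker CD138, had 41.7 and 79.1, and Tnfrsf17, for the plasma cell receptor BCMA, had 11.7 and 59.2.

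Of 11 early B lineage genes 7 were measured, of which 0 passed 2-fold upwards and 1 downwards, around a median log2 ratio of -0.34. The latter was Dntt, for terminal transferase, with 321 and 1762 on its brightest probe set and log2 ratios from -2.46 to 0.00 over 3 probe sets. Cd93 was 1.96-fold lower, Sox4 1.89-fold lower and Lef1, a factor also of T cells, higher by 0.59 on the log2 scale. Rag1, Rag2 and Vpreb1, for the recombinase and the surrogate light chain, were under the floor in both cultures.

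Other cells that carry CD40 or CD72 were looked at by lists of genes known from them, which need not be particular to them. Of 19 myeloid and dendritic cell genes 10 were measured, of which 1 passed 2-fold upwards and 4 downwards, around a median log2 ratio of -0.40. The summed signal of this list was 2519 in CD103+ Th1 and 6257 in Th1, and 1904 and 1781 without Batf3, so the order of the sums turns without that gene. Itgax, Itgam, Cd14 and Lyz2, which define dendritic cells and macrophages, were under the floor in both cultures. Mpeg1, for perforin-2, had 660 and 5.75, at least 8.41-fold higher, and was the gene of the list that differed in the direction of Cd40 by 2-fold. Batf3 was 7.27-fold lower, Cd86 at least 3.57-fold lower and Cd80 2.33-fold lower, the last pair encoding ligands of CD28 on antigen-presenting cells. A second Cd86 probe set had a log2 ratio of -0.62, less than 2-fold.

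MHC class II genes, which B cells and other antigen-presenting cells express, were higher in part. Of 9 measured genes 5 passed 2-fold upwards and 1 downwards, around a median log2 ratio of 1.01. H2-Aa had 798 and 58.5, at least 10.2-fold higher, H2-DMa 4783 and 990, 4.83-fold higher, H2-DMb2 903 and 233, 3.88-fold higher, and Cd74 526 and 207, 2.54-fold higher. H2-Ab1, the partner chain of H2-Aa, had 1423 and 3043, 2.14-fold lower. The summed signal was 12211 and 6779, and 7428 and 5789 without H2-DMa. Of 6 NK cell genes 3 were measured, Klrd1 at 3.76-fold, Klre1 at 2.28-fold and Klrk1 at 1.52-fold higher, with Ncr1 under the floor, and the summed signal was 11171 and 4332. All 4 erythroid genes with a probe set were under the floor, with a summed signal of 91.6 and 53.9. The part of such cells in the Cd40, Cd72 and immunoglobulin signals was not tested.

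**Figure D4:**
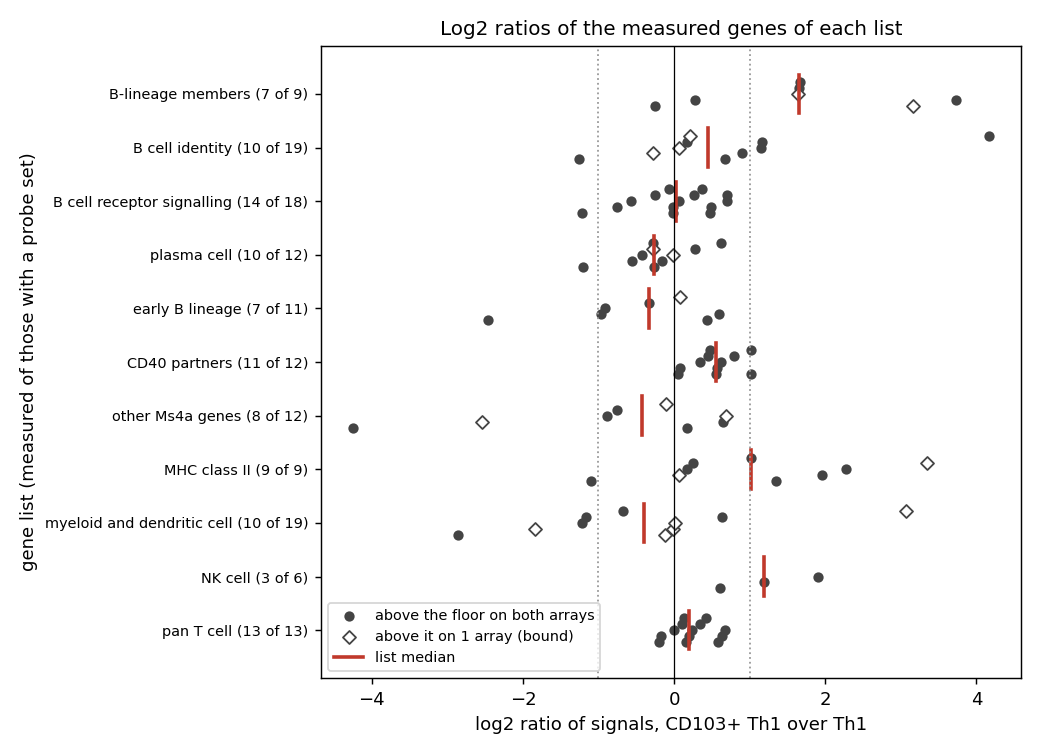
Log2 ratio of signals, CD103+ Th1 over Th1, of each measured gene of the lists (points), with bounds as diamonds, list medians as red bars and dotted lines at 2-fold. Of the B-lineage genes 5 lie right of the upper dotted line, around a median of 1.66, while the 13 pan T cell genes lie between the dotted lines around a median of 0.20.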

How the data were processed

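Expression was measured in 1 CD103+ Th1 and 1 Th1 culture. The deposited values are linear intensities, 1 per probe set on each array, in arbitrary units. The authors used Affymetrix GCOS, per the submitters' processing notes; version, scaling target and genome build are not given in the sources used here. Medians and 2% trimmed means (498 on both) were nearly equal, so no scaling was added. Probe sets were named by the platform annotation, updated by gene identifier through the GRCm38.p6 gene table (34741 of 34945 matched; 932 probe sets with several symbols and 9160 with none were not named). A gene was represented by the measured probe set whose mean log2 signal was highest. Genes were called at 2-fold, with the floor at the median (percentile 50). Since each group has 1 array, no test and no leaving out of replicates was possible.

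The members and all gene lists were chosen with earlier results of these data known. Named were every member, every measured B cell identity gene and up to 4 genes of each other list with the largest ratio. Further genes were named as unmeasured, as partners or for a second probe set, chosen after their values were seen. These were Cd3e, Cd4, Ighg3, Jchain, Cd40lg, Sema4d, Sdc1, Tnfrsf17, Irf4, Btk, Blnk, Rag1, Rag2, Vpreb1, H2-Ab1, Ncr1 and those given as under the floor. No gene was named for a pattern like that of a member, since 2 arrays give no measure of likeness. Alternatives covered scaling, floor, pseudocount, probe set choice and fold threshold. Python 3.11.15, pandas 2.3.3 and numpy 2.4.6 were used. The steps were tested on simulated data with differences planted on bright probe sets only, which does not cover signals near the floor.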

Additional observations from a re-analysis of the deposited data

How the results depend on the processing

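No direction of a measured member gene turned under 7 alternatives per gene on scaling, floor, pseudocount and probe set. A member unmeasured under a setting has no value there. Igha and Cd79b were at least 2-fold higher under all 7, and Cd40, Cd72 and Ighm under 6 of 7. The 7 of Cd79b leave out the floor at the 75th percentile, under which it was unmeasured. Its count is therefore not comparable with those of Cd40 and Cd72. Cd40 (0.57) and Cd72 (0.54) were under 2-fold on the log2 scale with the floor at the 75th percentile, 472, since the floor then exceeds their Th1 signals, and Ighm (0.74) with the mean of its probe sets. The 5 higher member genes became 4 with the mean of probe sets (4.45% of all measured genes) and 2 with the floor at the 75th percentile (3.72%). They became 2 at a 4-fold threshold (0.965%) and 1 with probe sets without suffix letters (5.40%), where 3 members are measured. The 0 lower became 1, Cd79a, with a pseudocount at the 25th percentile (21.2) and no floor (5.32% of all genes), which also brings unmeasured genes in. The 10 higher member probe sets became 5 with the higher floor and 6 at 4-fold. Of all measured genes, 3.72% and 0.965% were higher under these settings. The 0 lower became 1 with the lower floor and 1 with the pseudocount, where 7.63% and 5.32% of all genes were lower. Shares over all probe sets are not given for these settings, so nothing is read from these counts. The members' median of 1.66 was 0.92 with the higher floor, 1.64 with the mean of probe sets, 1.67 with medians set equal, 1.45 with the pseudocount, 0.27 without suffix letters and 1.60 after quantile normalization. The B cell identity median of 0.45 was 0.17 with the lower floor, 0.68 with the higher, 0.65 with the mean of probe sets, 0.46 with medians set equal, 0.15 with the pseudocount and 0.44 both after quantile normalization and with trimmed means set equal. No paired analysis was possible because each group has 1 array. Signals near or under the floor limit Blk, Cd22, Cd79a and Ms4a1, for which a difference was not detectable here.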
